A study of Mus musculus with 8 samples.

Results

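Among the 29425 nuclei of 4 snRNAseq samples from adult mouse hippocampus, 193 carried the authors' deposited label for choroid plexus. They were taken by that label alone, with no further selection. Mutant replicate 2 held 184 of them and control replicate 1 held 9, whereas mutant replicate 1 and control replicate 2 held none. In mutant replicate 2 these nuclei had *Ttr*, *Otx2*, *Clic6* and *Htr2c* transcripts at 16.9 to 76.3 times the level of the next highest cell type, together with transcripts for ion transport, motile cilia and tight junctions.

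The choroid plexus is the sheet of secretory epithelium that projects into the brain ventricles and makes cerebrospinal fluid. Its cells are polarised cuboidal epithelial cells joined by tight junctions, and they move ions, water, folate and thyroid hormone between blood and fluid. The tissue lies along the choroidal fissure next to the hippocampus, and at its margin it meets the ependyma, the ciliated lining of the ventricle.

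Each snRNAseq sample came from 1 male mouse of 12 weeks, and there were 2 mice per genotype. Mutants were *Gfap-Cre;Wls fl/-* and controls *Gfap-Cre;Wls fl/+*, so both genotypes carried the *Gfap-Cre* transgene and 1 floxed *Wls* allele (*Wls* is required for the secretion of Wnt ligands). Recombination takes place in cells with a history of *Gfap* promoter activity, and the other copy was null in mutants and wild type in controls. Bulk RNAseq was made from 4 further samples of the same age and the same 2 genotypes, again 2 mice each. Each library of either assay took up both hippocampi of its mouse. In both genotypes the bulk and snRNAseq libraries labelled replicate 2 share a code in their titles whose meaning is not given. Because 1 mouse supplied nearly all of the choroid plexus nuclei, the nuclei are described here by their identity and no genotype effect on them was tested.

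The snRNAseq libraries held 26307081 to 76486132 UMIs (unique molecular identifiers, 1 per captured transcript), and the bulk libraries 56002381 to 79576196 expected counts. In the snRNAseq samples *Ddx3y*, a Y-linked gene, reached 31.6 to 53.8 UPM (UMIs of a gene per 1000000 UMIs) and *Xist* 1.60 to 3.49 UPM. In bulk, the libraries labelled replicate 2 of both genotypes had 34766 (control) and 18301 (mutant) *Xist* counts with 23 and 28 *Ddx3y* counts, whereas replicate 1 of both had 59 and 85 *Xist* counts with 3289 and 3205 *Ddx3y* counts, although all 4 mice are labelled male. The libraries with a shared code thus differed in these genes between the assays. A total of 174 nuclei shared their 16-base barcode with a nucleus of another library, and 0 of these were choroid plexus nuclei.

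Choroid plexus nuclei were 1.76% of the nuclei in mutant replicate 2 (184 of 10460, exact binomial 95% interval 1.52 to 2.03) and 0.139% in control replicate 1 (9 of 6469, 0.0636 to 0.264). The 0 of 5304 nuclei in mutant replicate 1 allow a share of up to 0.0566% if 3 nuclei are taken as the limit (exact binomial upper bound 0.0695%), and the 0 of 7192 in control replicate 2 up to 0.0417% (0.0513%). The shares thus differed more between the 2 mutant mice than between genotypes, and with 2 mice per genotype the smallest p of a two-sided exact permutation test is 0.33. These intervals and limits, and those given for UMIs, cover counting error only. Choroid plexus nuclei held a median of 3878 UMIs (1599 to 32324) in mutant replicate 2 and 3168 (2105 to 30926) in control replicate 1, against 6772 and 5167 over all nuclei of those samples.

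The label was set beside the 4 markers. They encode the thyroid hormone carrier transthyretin (*Ttr*), a homeodomain factor of choroid plexus development (*Otx2*), an intracellular chloride channel protein (*Clic6*) and a serotonin receptor (*Htr2c*). In mutant replicate 2, 132 of the 184 nuclei had at least 1 UMI of all 4 markers, 48 had 3 and 4 had 2. In control replicate 1, 4 of the 9 had all 4 and 5 had 3. Among nuclei with other labels, 22 of 10276 in mutant replicate 2 had 3 or 4 markers and 0 in the other 3 samples did. Those 22 nuclei included 8 labelled CA1 and 4 labelled inhibitory neurons 5, and held a median of 19182 UMIs. Over the 30 genes that lead the choroid plexus nuclei, they held 2 to 133 UMIs each (median 35.5), against 24 to 220 (median 81) in the 184. The markers thus go with the label, which is a description and no test, since the label came from clustering the same nuclei.

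*Ttr* was present in 184 of 184 nuclei of mutant replicate 2, with 2 to 170 UMIs per nucleus and a median of 33. Its summed level was 6923 UPM (exact Poisson 95% interval 6757 to 7091), against 249 UPM in oligodendrocytes, the next highest of the 19 other types with at least 20 nuclei. *Htr2c* was found in 182 nuclei (98.9%), at 9578 UPM (9383 to 9776) against 568 UPM in excitatory neurons 13. *Clic6* was found in 173 nuclei (94.0%), at 655 UPM (605 to 709), and *Otx2* in 141 (76.6%), at 379 UPM (341 to 420). In CA1 nuclei of the same library, 29.7% had a *Ttr* UMI, 1.27% a *Clic6* UMI and 0.299% an *Otx2* UMI at a median depth of 9098 UMIs. After each nucleus was thinned to 1500 UMIs, the shares of choroid plexus nuclei with a UMI were 99.5% for *Ttr*, 98.4% for *Htr2c*, 63.0% for *Clic6* and 44.6% for *Otx2*.

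**Figure D1:**
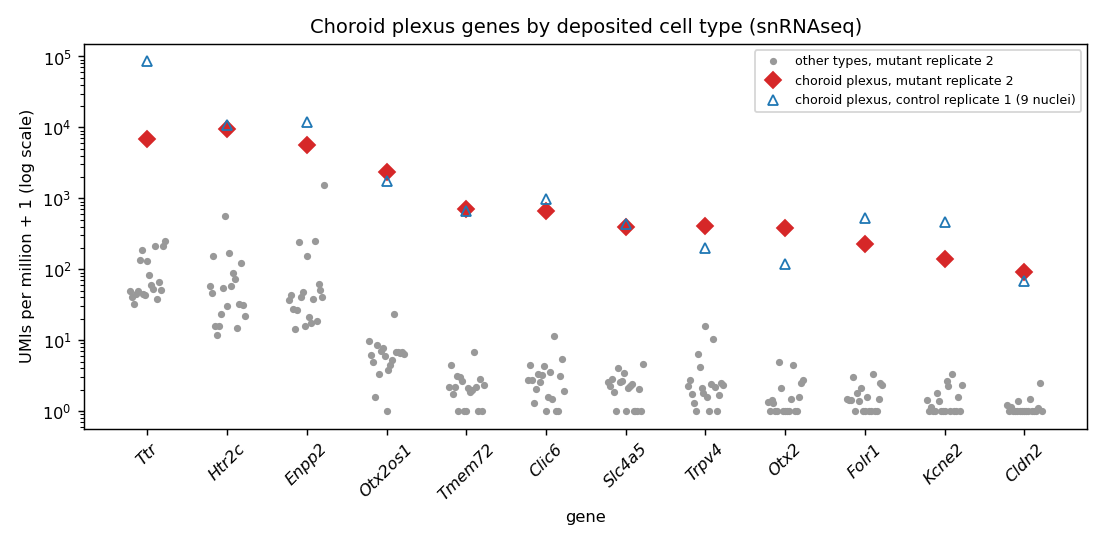
Levels of 12 transcripts in snRNAseq, in UPM plus 1 on a log axis. Red diamonds are the 184 choroid plexus nuclei of mutant replicate 2, open blue triangles the 9 of control replicate 1, and each grey point is 1 of 19 other deposited types of mutant replicate 2. The red diamonds lie above every grey point, from 9578 UPM for *Htr2c* to 91.8 UPM for *Cldn2*.

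To see what else set these nuclei apart, UMIs were summed per type in mutant replicate 2, and each gene was given the ratio of its UPM in choroid plexus nuclei to its UPM in the next highest type, with 1 UPM added to both. Of 24051 genes, 4474 reached 50 UPM in choroid plexus nuclei and 303 of these (6.77%) had a ratio above 2. The ratio exceeded 10 for 70 genes. These are descriptions with no test, since the authors made the type by clustering the same nuclei. UMI counts in nuclei rise with the intron content of a gene, so UPM values are compared between types and not between genes. For 8 of the 30 leading genes the next type was inhibitory neurons 14, which had the highest summed levels of the endothelial (2347 UPM), stromal fibroblast (1856 UPM) and mural (1487 UPM) markers, so that this label and its markers disagree.

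The highest ratio belonged to *Tmem72* (103), which encodes a membrane protein and had 710 UPM (657 to 765) with 680 UMIs, against 5 UMIs in inhibitory neurons 14. *Otx2os1*, a long non-coding RNA transcribed from the strand opposite *Otx2* on chromosome 14, followed with a ratio of 102 and was found in 183 of the 184 nuclei. In the GRCm38 annotation *Otx2os1* spans chr14:48668708-48870683 on the plus strand and *Otx2* chr14:48657677-48673819 on the minus strand, so the 2 genes overlap at their starts and reads there depend on strand-specific counting. *Slc4a5*, an electrogenic sodium bicarbonate cotransporter, had a ratio of 85.4 and *Otx2* itself 76.3. *Defb9*, a beta-defensin, had a ratio of 71.6 with 95 UMIs against 1 in astrocytes. The 30th gene had a ratio of 23.0 and the 31st 22.9.

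The list of epithelial identity genes is a set of known choroid plexus transcripts. Of its 27 members in the table, 24 reached 50 UPM and 20 of these had a ratio above 2, against the 6.77% over all genes at that level. The same 6.77% is the share to set beside the counts of the lists that follow. Among them were *Folr1*, the folate receptor through which folate enters the fluid (224 UPM, ratio 67.3), *Lmx1a*, a factor of the dorsal midline (339 UPM, 35.5), *Kcnj13*, an inwardly rectifying potassium channel (334 UPM, 6.22), and *Prlr*, the prolactin receptor (407 UPM, 6.10). *Kl*, the hormone coreceptor klotho, had 351 UPM and a ratio of 2.80. *Enpp2*, which encodes the secreted enzyme autotaxin, had 5664 UPM against 1520 UPM in oligodendrocytes, a ratio of 3.73. Some members at 50 UPM stood lower. The cation channel gene *Trpm3* had 13640.5 UPM in choroid plexus nuclei and 12139 UPM in inhibitory neurons 14 (ratio 1.12), *Col8a1* had a ratio of 2.00 and *Igfbp2* 0.366.

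Genes for ion and water transport were next. Of 19 listed, 17 reached 50 UPM and 7 had a ratio above 2. *Slc4a5* and *Kcne2*, a potassium channel subunit (138 UPM, 41.4), were among the 30 leading genes, as was *Trpv4*, a calcium channel opened by osmotic and mechanical stimuli (412 UPM, 26.1). The anion exchanger gene *Slc4a2* had a ratio of 4.69 and the carbonic anhydrase gene *Car12* 4.56. *Atp1b1*, a sodium pump subunit gene, was at a level found in neurons (440 UPM, ratio 0.901). *Slc4a10* had 1662 UPM, below the 2448 UPM of excitatory neurons 19, and *Slc12a2* had 381 UPM, below the 689 UPM of oligodendrocytes. The label excitatory neurons 19 had 900 UPM of the stromal fibroblast markers and 1241 UPM of the neuron markers. CA1 had 38.1 and 5805 UPM of these, so that this label and its markers disagree too. *Aqp1*, the water channel of the apical membrane, had 24 UMIs in 23 nuclei (25.0 UPM) and thus stayed under the 50 UPM minimum, with 1 UMI in the next type.

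Among 25 genes for nutrients, metals and drugs, 14 reached 50 UPM and 5 had a ratio above 2. The lactate transporter *Slc16a8* had 104 UPM and a ratio of 50.8. The nucleoside transporter *Slc28a3* (ratio 7.04), the copper transporter *Slc31a1* (3.24) and *Folr1* were also among the 5. *Slc22a8*, an organic anion transporter, had 5 UMIs in choroid plexus nuclei and 291 UPM in inhibitory neurons 14. The transferrin receptor gene *Tfrc* had 14 UMIs and *Lrp2*, the endocytic receptor megalin, 1 UMI.

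Of 20 genes for junctions and epithelial structure, 9 reached 50 UPM and 4 had a ratio above 2. *Cldn2*, the pore-forming claudin of leaky epithelia, had 91.8 UPM (ratio 37.8), the tight junction scaffold *Tjp3* 63.7 UPM (13.5), the keratin *Krt18* 50.1 UPM (26.1) and the membrane linker ezrin (*Ezr*) 228 UPM (3.98). *Cdh1*, the classical epithelial cadherin, had 1 UMI, *Epcam* and *Vil1* had 0, and *Cdh2* had 118 UPM. *Cdh3*, the gene for P-cadherin, was not on that list and had 181 UPM with a ratio of 50.6. A count of 0 UMIs among 958320 allows up to 3.85 UPM at the upper exact Poisson limit.

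Motile cilia genes formed the other large group. Choroid plexus epithelial cells carry tufts of cilia, and cells of the neighbouring ependyma carry longer beating ones. Of 19 genes in the table, 11 reached 50 UPM and 9 had a ratio above 2. The axonemal gene *Spag16* was found in 176 of 184 nuclei (1060 UPM, ratio 25.9), the dynein heavy chain *Dnah11* had 230 UPM (22.2), the tektin *Tekt1* 132 UPM (16.5) and the cilium-associated *Cfap44* 252 UPM (8.05). Over the whole list a nucleus held 0 to 60 UMIs, with a median of 19. Of the transcription factors, *Rfx2* had 126 UPM (ratio 3.66) and *Foxj1*, which drives the motile cilia programme, 15 UMIs (15.7 UPM), while *Rfx3* had 655 UPM and 1382 UPM in dentate granule cells (DGCs). Others of the list were almost lacking, with 3 UMIs of *Dnah5*, 4 of *Dnah12* and 2 of *Tekt4*. Axonemal genes off the list were among the 30 leading genes, namely *Drc7* (ratio 77.8), *Ttc21a* (43.8) and *Wdr63* (33.5).

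Promoter sequence was read for the leading genes, because RFX factors, which act on cilia genes, bind the X-box. The half-site searched was GTTGCC, on both strands, in the 250 bases before each start (RefSeq, GRCm38.p6). It was found in 7 of the 21 leading genes with a window (33.3%) and in 7 of 18 motile cilia genes (38.9%), with *Spag16* the 1 gene in both sets, against 11.8% of 27025 genes. The letters TAATCC, a site preferred by Otx2-class homeodomains, were found in 2 of the 21 (9.52%) against 7.21% of all genes. A match of letters is a description and does not show binding. The 3 windows printed were picked from those that hold the half-site, and windows without it are not shown. They include a cilia gene, a kinase gene of the NIMA family and a channel gene that lead these nuclei. Capitals mark the half-site or its reverse complement. They lie at chr1:69826720-69826969 on the plus strand (*Spag16*), chr8:22125068-22125317 on the minus strand (*Nek5*) and chr16:92292139-92292388 on the plus strand (*Kcne2*), and overlap 0 annotated exons.
Spag16: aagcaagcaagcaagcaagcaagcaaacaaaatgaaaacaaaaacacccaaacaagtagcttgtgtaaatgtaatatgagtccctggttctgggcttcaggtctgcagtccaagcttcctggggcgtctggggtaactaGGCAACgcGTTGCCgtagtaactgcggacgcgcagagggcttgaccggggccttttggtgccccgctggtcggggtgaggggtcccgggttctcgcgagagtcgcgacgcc
Nek5: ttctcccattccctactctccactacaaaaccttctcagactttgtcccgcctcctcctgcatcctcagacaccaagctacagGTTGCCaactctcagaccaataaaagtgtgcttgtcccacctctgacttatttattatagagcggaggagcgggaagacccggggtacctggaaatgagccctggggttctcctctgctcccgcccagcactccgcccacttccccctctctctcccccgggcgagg
Kcne2: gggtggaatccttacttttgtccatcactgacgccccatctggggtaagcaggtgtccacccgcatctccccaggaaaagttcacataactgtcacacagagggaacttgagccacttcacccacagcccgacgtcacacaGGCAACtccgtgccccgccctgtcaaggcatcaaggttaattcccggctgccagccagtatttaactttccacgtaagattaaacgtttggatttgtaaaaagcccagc
The *Spag16* window held 2 copies, 1 on each strand, and the other 2 windows held 1 each. A further *Kcne2* window, at chr16:92295366-92295615 before another start, held 0 copies.

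Of 23 secreted factors in the table, 14 reached 50 UPM and 7 had a ratio above 2. Besides *Ttr*, *Enpp2* and *Kl*, these were the insulin gene *Ins2* (89.7 UPM, ratio 24.0), the BMP and Wnt antagonist *Sostdc1* (50.1 UPM, 8.28), the protease inhibitor *Spint2* (102 UPM, 2.48) and *1500015O10Rik* (139 UPM, 2.32), which encodes augurin. The BMP ligand gene *Bmp6* had 532 UPM, below the 1594 UPM of inhibitory neurons 14. *Apoe* (237 UPM) and *Cst3* (188 UPM) were lower than in astrocytes, with ratios of 0.112 and 0.110.

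Of 20 receptor genes, 13 reached 50 UPM, and *Htr2c* and *Prlr* were the 2 with a ratio above 2, against 6.77% over all genes at that level. *Htr2c* is 1 of the 4 markers, so no trait of the receptor list is read from this count. *Fgfr2* had 1177 UPM (ratio 0.674) and *Igf1r* 418 UPM (0.607). For Wnt and BMP signalling, 17 of 56 genes reached 50 UPM and 4 had a ratio above 2, which were *Lmx1a*, *Sostdc1*, *Msx1* (174 UPM, 4.69) and the Wnt effector *Lef1* (308 UPM, 2.01). *Wls*, the gene deleted in this study, had 115 UMIs in 75 of the 184 nuclei (120 UPM, 99.1 to 144) in the mutant and 7 UMIs in 5 of the 9 nuclei (118 UPM) in the control. UMIs outside the floxed part of *Wls* are counted as well, so its level does not test recombination. The Wnt ligands with most UMIs were *Wnt5b* (24), *Wnt2b* (21), *Wnt4* (18) and *Wnt9a* (12).

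Genes that mark where along the brain a choroid plexus arises were scarce. The telencephalic factors *Emx1*, *Emx2*, *Lhx2* and *Otx1* had 6, 9, 4 and 11 UMIs. Of the 10 hindbrain Hox genes listed, the snRNAseq table held *Hoxb4*, with 0 UMIs. The origin of the nuclei along the brain was not read from these few UMIs.

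Marker lists of other cells were read in the same nuclei. The 8 endothelial markers summed to 24.0 UPM, the 7 stromal fibroblast markers to 54.3 UPM and the 4 OPC markers to 58.4 UPM. The 6 mural markers summed to 76.2 UPM, of which *Notch3* made up 62.6 UPM. The 6 astrocyte markers reached 397 UPM against 11594 UPM in astrocytes, and the 6 oligodendrocyte markers 379 UPM against 20540 UPM in oligodendrocytes. Ependymal markers reached 260 UPM, with *Pltp* (112 UPM) and *Hydin* (105 UPM) making up most of the sum, while *Ccdc153*, *Tmem212* and *Mia* were at 0 UMIs and *Rarres2* at 1. The 9 macrophage and microglia markers reached 436 UPM against 6243 UPM in microglia, and the 5 granule cell markers 30.3 UPM against 439 UPM in DGCs. Neuron markers summed to 1827 UPM, the highest of the non-epithelial lists, against 5805 UPM in CA1.

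**Figure D2:**
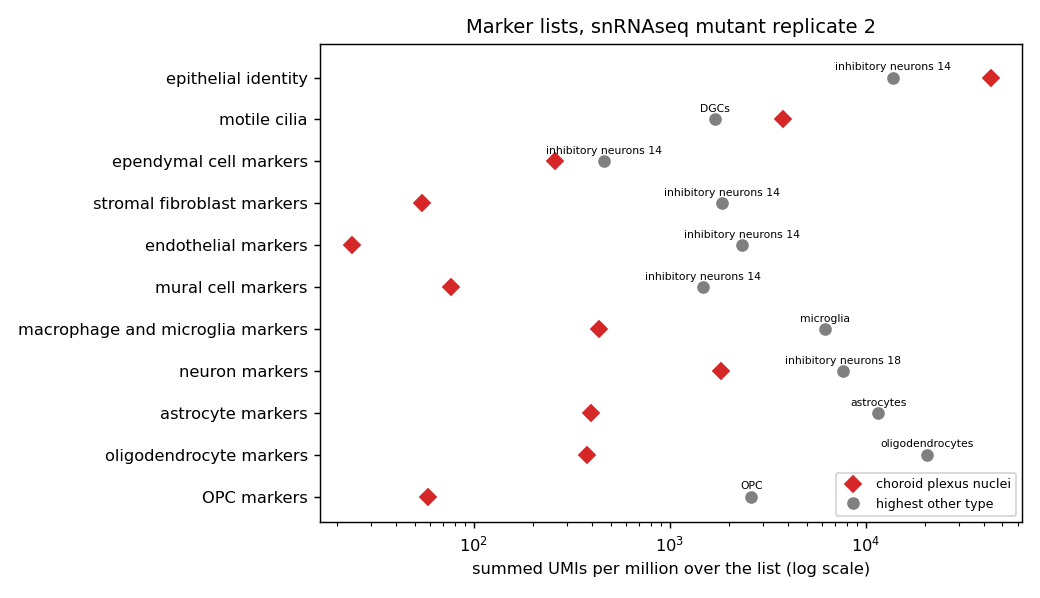
Summed UPM of 11 lists in snRNAseq mutant replicate 2, on a log axis, for the choroid plexus nuclei (red diamonds) and for the other type with the highest sum (grey points, type named). The choroid plexus nuclei are higher for epithelial identity (43446 against 13830 UPM) and motile cilia (3774 against 1708 UPM) and lower for the other 9 lists.

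The neuron markers were concentrated in a minority of the nuclei. In mutant replicate 2, 27 of the 184 nuclei held 10 or more UMIs over the 8 neuron markers (median 50, highest 128), and the other 157 held 0 to 8 (median 2). The 27 had a median of 13041 UMIs per nucleus and the 157 a median of 3695. Median UMIs of choroid plexus transcripts were close in both, at 35 and 32 for *Ttr*, 55 and 46 for *Htr2c*, 33 and 27 for *Enpp2* and 22 and 19 for the cilia list. The doublet caller Scrublet marked 35 of the 184 nuclei, 23 of them among the 27. The marked nuclei and the 27 were kept in the values given here. *Ttr* took a median of 0.308% of a nucleus's UMIs in the 27 and 0.857% in the 157, so the 27 lower its summed UPM. Without the 27 nuclei the number of genes with a ratio above 2 was 425 in place of 303, and the same 30 genes led. Without the nuclei marked by Scrublet it was 423, with 27 of the 30 again among the leading 30.

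Among the nuclei of mutant replicate 2, *Ttr* took 0.0670% to 4.68% of a nucleus's UMIs (median 0.769%), *Htr2c* 0 to 2.68% (median 1.16%) and *Enpp2* 0.0379% to 1.69% (median 0.650%). In nuclei thinned to 1500 UMIs, the variance between nuclei exceeded the mean 5.66-fold for *Ttr* and 5.25-fold for *Htr2c*, against a median of 1.20 over 363 genes with a mean of at least 0.5 UMIs. It was 3.91 for *Trpm3*, 3.05 for *Enpp2*, 1.38 for *Otx2* and 1.27 for *Clic6*. At a given relative spread this measure rises with the mean of a gene. The thinned means were 12.95 UMIs for *Ttr*, 16.71 for *Htr2c*, 0.723 for *Otx2* and 1.23 for *Clic6*. The measure thus does not rank these genes by relative spread. The neuronal transcripts *Meg3* (12.01), *Kcnip4* (7.43) and *Snhg11* (6.51) were also high, and fell to 1.15, 1.07 and 1.03 without the 27 nuclei. *Lsamp* (9.91) and *Nkain2* (5.93), which are no members of the lists, did not follow them and stood at 12.7 and 8.04 without the 27, above *Ttr*. *Ttr* stayed at 4.91 and *Htr2c* at 4.31, so their spread too remained among the other 157 nuclei. These 157 were not selected on glial markers. Of the 184 nuclei, 9 held 10 or more astrocyte marker UMIs (highest 63) and 4 held 10 or more oligodendrocyte marker UMIs (highest 125).

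**Figure D3:**
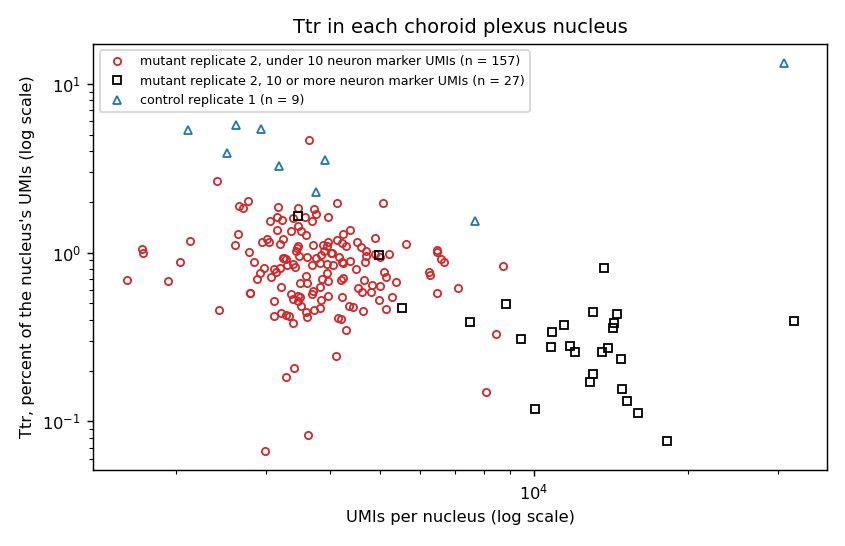
*Ttr* as a percentage of all UMIs of each choroid plexus nucleus (log axis) against the nucleus's UMIs (log axis). Open circles and black squares are nuclei of mutant replicate 2 with under 10 (n = 157) and with 10 or more (n = 27) neuron marker UMIs, and triangles are the 9 nuclei of control replicate 1. Most squares lie low and to the right (median 0.308%), and the triangles lie between 1.55% and 13.3%.

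The 9 nuclei of control replicate 1 had the same marker transcripts at other levels. *Htr2c* was at 10806 UPM and *Tmem72* at 654 UPM, 1.13 (1.04 to 1.22) and 0.922 (0.650 to 1.27) times the levels in mutant replicate 2. As for *Tmem72*, the intervals of *Slc4a10* (1.01, 0.816 to 1.236), *Rfx3* (1.18, 0.853 to 1.59) and *Slc4a5* (1.12, 0.721 to 1.66) include 1. *Ttr* was at 84987.5 UPM, 12.3 times higher (11.8 to 12.7), and a nucleus with 30926 UMIs supplied 4099 of its 5065 UMIs. Without that nucleus the ratio was 4.87 (4.55 to 5.21). By nucleus, *Ttr* made up 1.55% to 13.3% of UMIs in the control (median 3.89%), and the range overlaps that of the mutant nuclei. *1500015O10Rik* (3.02, 1.52 to 5.45), *Sostdc1* (4.18, 1.46 to 9.78), *Kcne2* (3.55, 1.89 to 6.16) and *Folr1* (2.18, 1.17 to 3.73) were also higher without that nucleus, and *Otx2* (0.276, 0.0567 to 0.814) and *Malat1* (0.591, 0.559 to 0.624) lower. Without that nucleus the interval of *Apoe* (0.736, 0.237 to 1.74) and of *Calml4* (0.836, 0.170 to 2.50) included 1. Without that nucleus, 1433 genes had at least 20 UMIs in the mutant and 5 in the control. Their median ratio was 1.43 and 27.6% were more than 2-fold higher in the control. Over 20 epithelial identity genes the median was 1.47. The control nuclei held far fewer UMIs in all, so their minimum is a higher level in UPM. Genes at low levels pass it mainly where the control is higher, which raises these values, so no general difference is read from them. With that nucleus kept, the median was 1.22 over 3132 genes (19.6% more than 2-fold higher) and 1.54 over 23 identity genes. The intervals cover counting error of the summed UMIs and leave out the spread between nuclei. They are thus too narrow, and an interval without 1 does not show that the nuclei of the 2 samples differ. Each side is 1 mouse, so the ratios are no comparison of genotypes, and levels from 9 nuclei rest on few cells.

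*Ttr* UMIs were also found in nuclei with other labels, in each sample. They were present in 31.8% of the other nuclei of mutant replicate 2 and 13.2% of those of control replicate 1, against 4.39% in control replicate 2 and 0.547% in mutant replicate 1, where no choroid plexus nucleus was labelled. In mutant replicate 2 the mean was 0.314 to 0.728 *Ttr* UMIs per nucleus over 19 types, while the mean depth of those types ran from 2008 to 13983 UMIs. Oligodendrocytes and CA1 nuclei had 0.501 and 0.470 *Ttr* UMIs per nucleus at median depths of 1868 and 9098 UMIs. In control replicate 1 the mean was 0.0263 to 0.212 over 18 types. Nuclei with other labels held 41.1% of the *Ttr* UMIs of mutant replicate 2 but 10.8% of its *Otx2* UMIs and 18.1% of its *Clic6* UMIs. For the 30 leading genes, the level in other nuclei of mutant replicate 2 was 0.0935% to 2.25% of that in choroid plexus nuclei (median 0.326%). The most *Ttr* UMIs in a nucleus with another label were 122, in a nucleus labelled CA1. In control replicate 2 the mean was highest in inhibitory neurons 14, at 0.309 *Ttr* UMIs per nucleus against a median of 0.0478 over 17 types. There 15.4% of the nuclei had a *Ttr* UMI, with up to 11 in a nucleus. Whether *Ttr* UMIs in nuclei with other labels are background or expression was not tested.

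**Figure D4:**
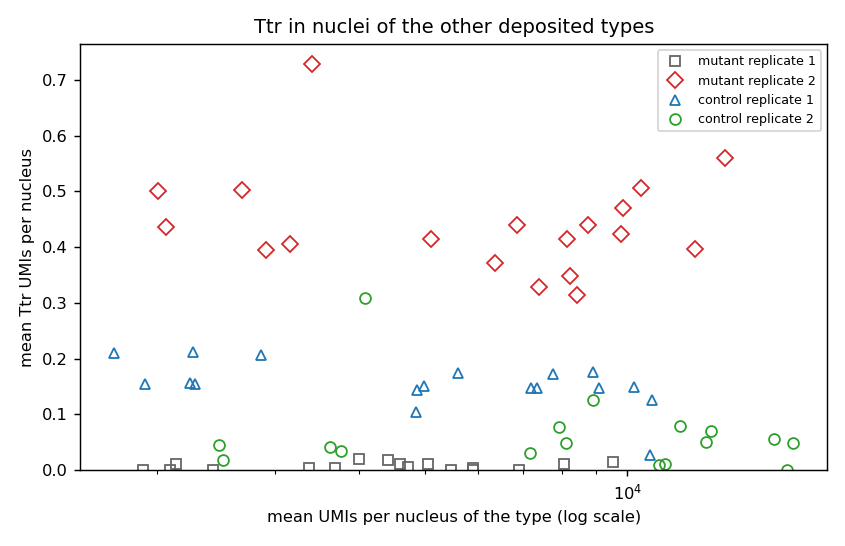
Mean *Ttr* UMIs per nucleus in each deposited type other than choroid plexus (linear axis) against the mean UMIs per nucleus of that type (log axis), for types with at least 20 nuclei in each of the 4 snRNAseq samples. The points of mutant replicate 2 (red diamonds) lie between 0.314 and 0.728, above those of control replicate 1 (blue triangles, 0.0263 to 0.212), of control replicate 2 (up to 0.309) and of mutant replicate 1 (grey squares, up to 0.0192).

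Bulk RNAseq allowed the transcripts that lead these nuclei to be read in libraries that did not define them. The deleted gene was read first, and *Wls* had 13.2 and 13.0 CPM (counts per 1000000, TMM scaled) in control replicates 1 and 2 and 3.67 and 6.87 CPM in mutant replicates 1 and 2, below both controls. Its log2 fold change was -1.31 ± 0.30 (SE) with an adjusted p of 0.117 by edgeR, so it was not called. *Ttr* had 84.8 and 31.8 CPM in control replicates 1 and 2 and 635 and 4963 CPM in mutant replicates 1 and 2. *Clic6* had 7.46, 3.41, 19.3 and 145 CPM in the same order, and *Otx2* 1.91, 1.06, 5.20 and 23.7 CPM. For these 3 genes both mutant libraries were above both controls, and mutant replicate 2 was the higher of the mutants. The same order was found for the *Htr2c* receptor gene, with 24.8, 18.5, 33.5 and 74.5 CPM, which neurons also express. In whole tissue, more cells of a type and more RNA per cell cannot be told apart.

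Genes were called by the quasi-likelihood test of edgeR, adjusted by Benjamini-Hochberg, at FC above 3 and FDR below 0.05. Of 20687 genes, 4 (0.0193%) were higher in the mutant and 41 (0.198%) lower. At the same thresholds with another tool, EBSeq, the authors reported more transcripts higher in the mutant, most of them specific to the choroid plexus. The paper takes these as a likely sign that choroid plexus was carried into the mutant samples at dissection, which was not tested here. Of the 30 leading genes, 27 were in the bulk tables and 22 passed the filter on low counts. None of the 22 was called (0 higher, 0 lower), and 20 had an unadjusted p under 0.05, against 3889 of all 20687 genes. Their log2 fold changes were 0.44 to 5.59, with a median of 3.38 against 0.01 over all genes. In 20 of the 22, both mutant libraries were above both controls, as they were in 25.8% of all genes. *Ttr* had a log2 fold change of 5.59 ± 1.16 (SE) and an adjusted p of 0.103, *Folr1* 4.88 ± 1.03 (0.105), *Cldn2* 5.13 ± 1.22 (0.125) and *Nek5* 2.11 ± 0.32 (0.0608). The 22 genes were each higher in mutant replicate 2 than in mutant replicate 1, with a median ratio of 4.49. DESeq2 called 13 of the 22, and edgeR called 22 of 24 without mutant replicate 1 and 8 of 22 without mutant replicate 2, where the median log2 fold change was 1.82.

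Other lists gave the context for these values. Of 27 epithelial identity genes tested, 0 were called and the median log2 fold change was 3.29, and mutant replicate 2 had 5.67 times the CPM of mutant replicate 1 in the median. *Kcnj13* had 0.833 and 0.447 CPM in controls and 4.03 and 27.9 CPM in mutants, and the water channel gene *Aqp1* 1.13, 0.536, 3.01 and 36.7 CPM. *Slc4a10*, which neurons also express, overlapped between genotypes, with 11823 and 13974 counts in controls and 11004 and 18363 in mutants.

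Motile cilia and ependymal genes had another pattern across the libraries. Of 19 cilia genes, *Dynlrb2*, a dynein light chain gene, was called higher (0.797 and 0.536 CPM in controls, 2.63 and 2.82 CPM in mutants, log2 fold change 2.04 ± 0.27, adjusted p = 0.0456 by edgeR) and *Rfx3* lower (log2 fold change -1.74 ± 0.06, adjusted p = 0.00375). *Rfx3* was highest in DGC nuclei. Of 5 granule cell markers 3 were called lower, against 41 of all 20687 genes (0.198%). The cause of the lower *Rfx3* was not tested. Without either of the controls edgeR called 0 genes, these included. For the 9 ependymal markers the median log2 fold change was 0.89 and 0 were called. Both mutant libraries were above both controls for 9 of 9, as they were for 25.8% of all genes. *Ccdc153*, at 0 UMIs in choroid plexus nuclei, had 3.44 and 1.89 CPM in controls and 7.14 and 5.66 CPM in mutants. For ependymal markers mutant replicate 2 had 0.811 times the CPM of mutant replicate 1 in the median, and for motile cilia genes 1.07 times, against 5.67 for epithelial identity. Whether ependymal cells contributed to the cilia values in bulk was not tested.

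**Figure D5:**
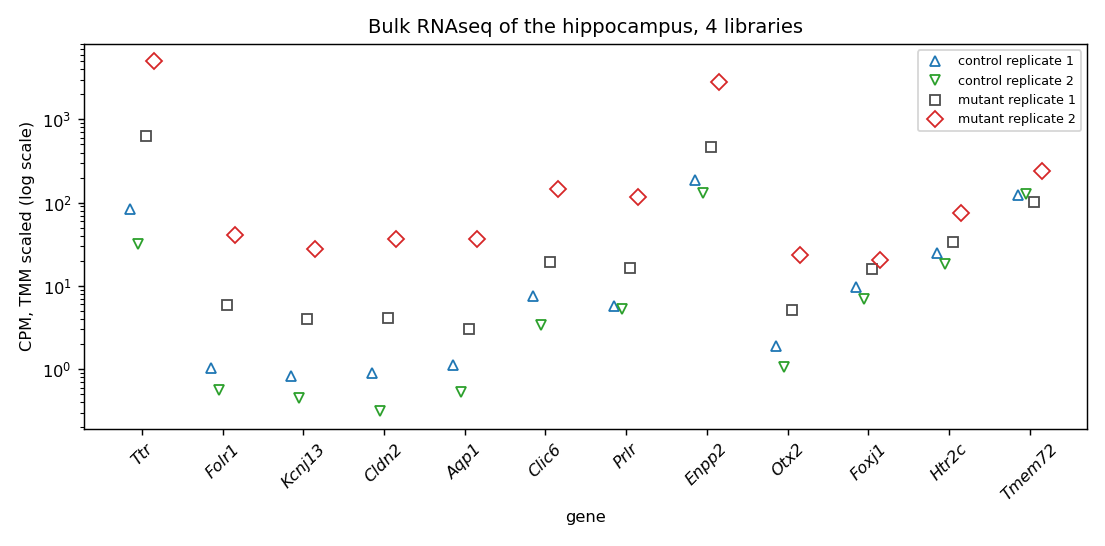
Bulk RNAseq levels of 12 genes in CPM (TMM scaled, log axis) in each of the 4 libraries, with 2 controls (triangles), mutant replicate 1 (squares) and mutant replicate 2 (diamonds). *Ttr* goes from 31.8 and 84.8 CPM in controls to 635 and 4963 CPM in mutants, *Foxj1* has 16.2 and 20.2 CPM in mutants, and the libraries overlap for *Tmem72*.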

How the data were processed

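The authors aligned snRNAseq reads with Cell Ranger 3.1.0 to a pre-mRNA index of mm10, filtered and clustered nuclei with Monocle 3 after batch correction, and deposited UMI counts per gene and nucleus with a cell type label. The deposited size factor, a ratio of a nucleus's UMIs to the average nucleus, was used only for a check. Bulk reads were aligned to mm10 with RSEM 1.3.0 and Bowtie2 2.2.9, and the authors deposited expected counts, with a table of the same expected counts divided by a size factor per library (normalized signal).

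Nuclei labelled choroid plexus were taken as deposited, with no further filter on cells. UMIs were summed per sample and type and divided by the total (UPM). Poisson and binomial 95% intervals are exact (scipy 1.17.1). For shares of nuclei with a UMI, each nucleus was also thinned to 1500 UMIs. Doublets were called with Scrublet in scanpy 1.11.5 and kept. No test was made between choroid plexus nuclei and other types.

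Expected counts were rounded and tested with edgeR 4.0.16 (TMM, filterByExpr, quasi-likelihood, Benjamini-Hochberg adjustment over all genes passing the filter), with the study's FC of 3 and FDR of 0.05. EBSeq, the study's tool, was not run. DESeq2 1.42.0 and limma 3.58.1 (log2 of the deposited normalized signal plus 1) were alternatives, beside RLE scaling, no filter, a replicate block, each library left out, and FC above 2.

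Genes were named if they were among the 4 markers, *Wls*, the fixed lists, or the 30 with the highest ratio to the next type among genes of at least 50 UPM. Genes named outside this rule (*Meg3*, *Kcnip4*, *Snhg11*, *Malat1*, *Lsamp*, *Nkain2*) were chosen after their values were seen. The members and lists were chosen with earlier results of these data known. Promoters were RefSeq sequences on GRCm38.p6, and other coordinates are those of a GENCODE annotation of GRCm38. The strand setting of the counting is not given in the sources used here. Values of some list members are not reported here.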

Additional observations from a re-analysis of the deposited data

How the results depend on the processing

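With 2 bulk libraries per genotype, the number of genes called in bulk depended on the settings. By edgeR, 4 genes were higher and 41 lower in the mutant. Without the filter on low counts there were 201 and 112, with DESeq2 66 and 54, and at FC above 2 there were 6 and 76. Leaving out 1 library gave 0 to 248 higher and 0 to 147 lower, with 0 in both directions without either control (2267 and 1655 genes at an unadjusted p under 0.05), and the lone library left in a genotype was then assumed to vary like the other pair. Of the 30 leading genes, 0 were called higher by edgeR, 20 without the filter, 13 by DESeq2 and 0 to 22 with a library left out. Their median log2 fold change was 3.38, and 1.82 to 4.22 with a library left out. With a library left out, the log2 fold change of *Tmem72* ranged from -0.32 to 0.93 and that of *Slc16a8* from -0.016 to 3.92, both negative without mutant replicate 2. The cause of these differences was not tested.

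With the replicate number as a block, 2 genes were higher and 24 lower, and the median of the leading genes was 3.06 with 0 called. The numbers share no stated litter or day, and the deviations of same-numbered libraries correlated at 0.0644 over 2 pairs, so the block was not taken as a pairing. In both genotypes the number also goes with *Xist* and *Ddx3y*, so the block takes up that difference, and its part in the changed calls was not tested.

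In the nuclei, 303 genes had a ratio above 2, and 200 at a minimum of 100 UPM. Of 248 ratios recomputed for 31 genes under 8 alternatives, 248 stayed above 2 and the lowest was 9.02, while single ratios moved from 0.295 times (*Nek5*) to 5.53 times (*2900040C04Rik*) with other types taken from control samples. Of the 30 leading genes, 22 again led in that setting, 26 with types summed over all 4 samples and 19 at a minimum of 100 UPM. After thinning, 44.6% of nuclei had an *Otx2* UMI and 63.0% a *Clic6* UMI. The *Ttr* ratio of control replicate 1 to mutant replicate 2 was 4.87 without the nucleus with most UMIs, an alternative chosen after seeing the data, as was leaving out the nuclei with 10 or more neuron marker UMIs. Levels in control replicate 1 are limited by its 9 nuclei.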

Other observations

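*Cx3cr1*, the fractalkine receptor gene known from microglia, had 335 UMIs in the choroid plexus nuclei of mutant replicate 2 (350 UPM) and was found in 80.4% of them, and in control replicate 1 it had 14 UMIs. Other genes of the macrophage and microglia list were near 0 in the 184 nuclei, with 5 UMIs of *Csf1r*, 3 of *Mrc1* and 1 of *Ptprc*. *Cx3cr1* thus made up most of the 436 UPM of that list.

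*Igf2*, a growth factor gene known from choroid plexus and meninges, had 0 UMIs in the choroid plexus nuclei of mutant replicate 2, while the bulk libraries held 4365 and 6117 counts in controls and 4732 and 35378 in mutants, with overlap between genotypes.

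*Tmem72* had the highest ratio in the nuclei and in bulk 123 and 127 CPM in controls and 101 and 238 CPM in mutants, again with overlap (log2 fold change 0.44 ± 0.38, adjusted p = 0.602 by edgeR), so its bulk values did not follow those of *Ttr* or *Clic6*.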
